A study of Mus musculus with 4 samples.

Results

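The genes described here are 10 interferon-inducible GTPases, chosen by their symbols from the 32285 genes of the deposited matrices: the guanylate-binding proteins Gbp2, Gbp2b, Gbp3, Gbp4, Gbp5, Gbp7 and Gbp8, and the immunity-related GTPases Irgm1, Igtp and Iigp1. They were followed through 4 single-cell RNA libraries of ascites, 2 labelled siCont and 2 labelled siFXR1-LNA, taken from female FVB mice 6 weeks after the injection of Br-Luc tumor cells. Br-Luc is a mouse ovarian tumor line that, per the methods, lacks p53 and Brca1 and carries Myc and a membrane-bound Akt, and mice of both groups carried it. Both groups also received an LNA-modified siRNA in jetPEI, a control sequence in siCont and a sequence against Fxr1 in siFXR1-LNA. Each library was made from pooled ascites of 3 mice, so that a p-value measures the spread between such pools.

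Guanylate-binding proteins are large GTPases of the dynamin superfamily that gather on the vacuoles and surfaces of intracellular microbes and help to break them open and to start inflammasome signalling. The immunity-related GTPases act on the same vacuoles: Iigp1 is an effector that loads onto them, while Irgm1 and Igtp sit on host membranes and keep the effectors in check there. Both families are low in resting cells and are induced above all by interferon-gamma, which signals through its receptor and the kinases Jak1 and Jak2 to GAS elements and, through Irf1, to interferon-stimulated response elements (ISREs). Type I interferons reach ISREs as well. Macrophages are the classical cells in which these proteins have been studied.

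On the mouse build GRCm38, 5 of the 10 genes lay side by side on chromosome 3 within 144 kb, in the order Gbp5 (chr3:142493978-142522344), Gbp7 (chr3:142530342-142550149), Gbp3 (chr3:142560026-142573209), Gbp2b (chr3:142594847-142619179) and Gbp2 (chr3:142620602-142638008), all on the plus strand. Gbp8 (chr5:105014150-105139540) and Gbp4 (chr5:105115767-105139586) shared 23.8 kb of chromosome 5 on the minus strand. Irgm1 (chr11:48861968-48871683) and Igtp (chr11:58199556-58207591) were on chromosome 11. Gbp4 and Gbp8 overlap on one strand, and the guanylate-binding proteins resemble each other in sequence, so reads could be split between neighbours and the values of single genes are less certain than those of the group.

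Promoter windows from RefSeq (GRCm38.p6), reaching from 250 bases before to 50 after a gene's start, are described here for 7 of the 10 genes. Gbp4, Gbp8 and Iigp1 are left out, so the counts below hold for the 7 genes shown and not for all 10. Both strands were searched for the ISRE core (GAAA, any 2 bases, GAAA) and for the GAS element TTCNNNGAA. All 7 genes held the ISRE core in a window, against 3.44% of all 32851 windows, and Gbp5, Gbp7 and Igtp also held a GAS match, against 8.30% of all windows. Gbp3 had a further window (chr3:142560106-142560405) with 0 ISRE matches, so a count of genes is not the same as a share of windows. No ISRE match overlapped a GAS match. The stretches around the first ISRE match of each gene are shown because they are what the 7 genes have in common, read 5′ to 3′ on the gene's own strand with the match in capitals. A match that begins with TTTC is the same core on the opposite strand.
Gbp2b (chr3:142594700-142594729): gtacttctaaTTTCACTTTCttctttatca
Gbp2 (chr3:142620594-142620623): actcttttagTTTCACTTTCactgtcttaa
Gbp3 (chr3:142559989-142560018): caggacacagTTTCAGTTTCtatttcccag
Gbp7 (chr3:142530273-142530302): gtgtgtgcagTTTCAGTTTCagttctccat
Gbp5 (chr3:142496759-142496788): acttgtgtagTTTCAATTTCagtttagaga
Igtp (chr11:58199512-58199541): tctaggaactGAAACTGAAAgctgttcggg
Irgm1 (chr11:48871431-48871460): cctgtttcaaGAAATAGAAAccgaaactga
Counted from the start that the RefSeq window uses, the match began 30 bases upstream in Irgm1, 34 in Igtp, 45 in Gbp3, 53 in Gbp7 and 59 in Gbp2, and farther upstream in Gbp2b (137 bases) and Gbp5 (165 bases). RefSeq starts differ from the gene coordinates given above, which are from GENCODE, and by those coordinates the matches of Gbp2, Gbp5 and Irgm1 lie inside the gene. Gbp3 and Irgm1 each held a second match that shared bases with the first. These matches describe letters in a window and no binding was measured.

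After the filter of the methods, 16874 to 54344 barcodes per library remained, with 78179267 to 113606837 UMIs in the deposited libraries and 575 to 2846 cell barcodes shared between 2 libraries (3.41% to 7.84% of the smaller one). The hemoglobin share of UMIs was 29.5% and 41.1% under siCont and 10.0% and 9.11% under siFXR1-LNA. Fxr1, the gene the siRNA targets, was not lower under siFXR1-LNA: over all kept cells its level was 55.8 and 33.9 UMIs per 1000000 UMIs (CPM) under siCont against 104 and 71.8 CPM under siFXR1-LNA. In macrophages it had 65.4 and 60.9 against 73.3 and 68.6 CPM, and in epithelial or mesothelial cells 109 and 125 against 140.3 and 138 CPM. In mature dendritic cells the groups overlapped, at 64.3 and 79.6 against 49.4 and 80.8 CPM. The measured target did not bear out the labels in these cells, and the names siCont and siFXR1-LNA below stand for the libraries so labelled.

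Under siCont the summed level of the 10 genes was highest in mature dendritic cells, type 2 dendritic cells, T cells and macrophages. It was lower in B cells, epithelial or mesothelial cells, neutrophils and mast cells. Levels are CPM over the cells of a type in a library, and cell types are clusters named from marker genes. In the libraries labelled siCont, mature dendritic cells had 557 ± 73.4 CPM (SD, n = 2), type 2 conventional dendritic cells (cDC2) 491 ± 60.4, T cells 489 ± 51.5 and macrophages 426 ± 43.2. These 4 types overlapped with their neighbours in the order. B cells followed at 244 ± 20.5, epithelial or mesothelial cells at 191 ± 13, neutrophils at 187 ± 22.3, type 1 conventional dendritic cells (cDC1) at 141 ± 21.3 and mast cells or basophils at 113 ± 7.53 CPM. Epithelial or mesothelial cells and neutrophils could not be told apart by these values. B cells of either siCont library lay below macrophages of both. Under siFXR1-LNA the 2 types overlapped, with 78.1 and 144 CPM in B cells and 78.4 and 132 CPM in macrophages.

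The 2 kinds of conventional dendritic cells stood apart. cDC1, which carried the defining markers Xcr1, Clec9a, Itgae and Tlr3 among their leading genes, held 156 and 126 CPM in the libraries labelled siCont, whereas cDC2 held 448 and 533. In the same libraries NK cells (331 and 380.0 CPM) and plasmacytoid dendritic cells (315 and 401 CPM) rested on 35 to 99 UMIs per library.

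The libraries labelled siFXR1-LNA held a lower summed level in each of these types. The means were 211 ± 76.7 CPM in mature dendritic cells, 263 ± 129 in T cells, 140 ± 18.8 in cDC2, 111 ± 46.9 in B cells and 105 ± 37.8 in macrophages. Replicate 2 was above replicate 1 in all of them, and the gap was widest in T cells (171 and 354 CPM). Relative to siCont the summed level was 4.06 times lower in macrophages, 3.50 in cDC2, 2.96 in epithelial or mesothelial cells, 2.64 in mature dendritic cells, 2.19 in B cells, 2.08 in neutrophils, 1.86 in T cells, 1.79 in cDC1 and 1.56 in mast cells or basophils.

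**Figure D1:**
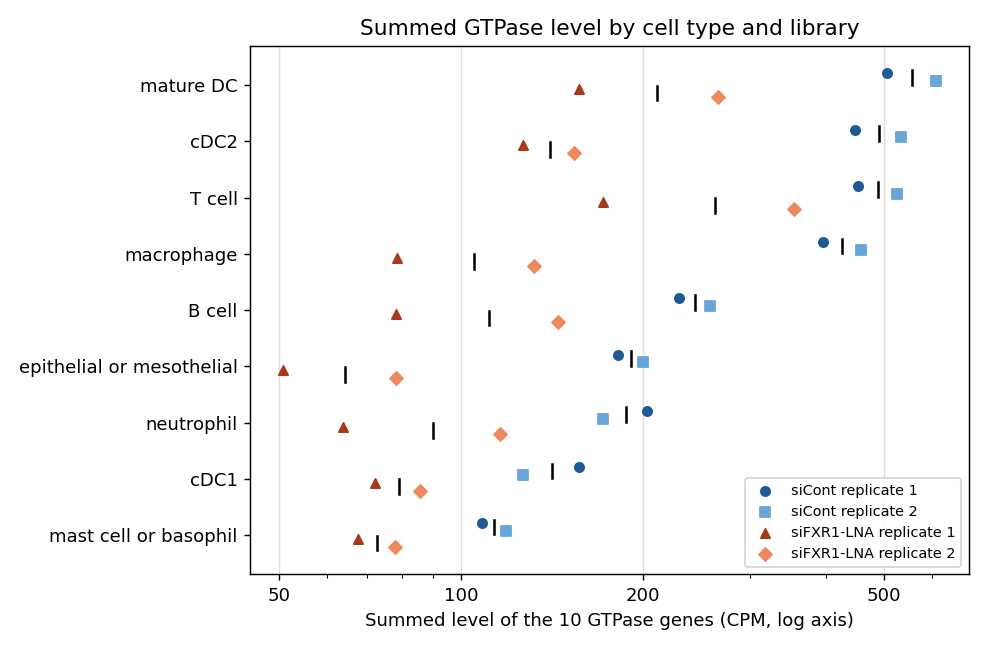
Summed level of the 10 GTPase genes in 9 cell types, in CPM on a log axis; each point is 1 library and each black line a group's mean. In macrophages the libraries labelled siCont lie at 396 and 457 CPM and those labelled siFXR1-LNA at 78.4 and 132 CPM.

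Erythroid barcodes, which should hold little of these transcripts, were taken as a gauge of free RNA. Their totals include their own hemoglobin UMIs, which lowers their CPM, so their level is no upper limit for other types. These barcodes reached 64.0 and 27.5 CPM under siCont, at median depths of 1709 and 2320 UMIs. In the libraries labelled siFXR1-LNA only 17 and 55 erythroid barcodes were found. There an unnamed cluster of 41023 and 5456 barcodes gave 32.4 and 40.9 CPM, at median depths of 1264 and 2135 UMIs. Neutrophils of siFXR1-LNA replicate 2 had a median of 2115 UMIs. Whether the barcodes of the unnamed cluster were cells or free RNA was not tested. Under siFXR1-LNA, the lowest levels among types with a tested gene were 50.8 CPM in epithelial or mesothelial cells and 63.8 CPM in neutrophils. Both were in siFXR1-LNA replicate 1. Plasmacytoid dendritic cells, in which none was tested, had 41.3 CPM there on 2 UMIs.

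Shares of cells were also lower in the libraries labelled siFXR1-LNA. After every cell was thinned to 500 UMIs, 17.2% and 16.8% of macrophages carried a UMI of at least 1 of the 10 genes in the libraries labelled siCont, against 4.53% and 6.39% in those labelled siFXR1-LNA, and unthinned shares were 70.8% and 72.7% against 31.0% and 54.6%. In cDC2 the thinned shares were 16.2% and 21.2% against 4.86% and 9.17%, and in mature dendritic cells 22.7% and 29.4% against 7.25% and 10.0%. Erythroid barcodes, thinned alike, gave 3.45% and 1.64% in the libraries labelled siCont, with their hemoglobin UMIs included. The unnamed cluster gave 1.65% and 2.27% in those labelled siFXR1-LNA. The siFXR1-LNA shares in cDC1 (3.95% and 1.47%, of 76 and 68 cells) had exact binomial intervals that overlapped those of the unnamed cluster. On so few cells the overlap cannot decide whether these shares are background. The summed level in cDC1 of the same libraries was 72.2 and 85.7 CPM, against 32.4 and 40.9 CPM in the unnamed cluster. In neutrophils (3.38% and 5.47%) the intervals did not overlap those of the unnamed cluster. In epithelial or mesothelial cells (2.50% and 3.61%) they overlapped at 500 UMIs. Thinned to 1000 UMIs, the epithelial or mesothelial share in siFXR1-LNA replicate 1 was 5.10% (4.03% to 6.35%). The unnamed cluster there had 3.26% (3.09% to 3.44%), without overlap. In siFXR1-LNA replicate 2 the shares were 7.75% (5.36% to 10.8%) against 4.77% (4.17% to 5.43%), with overlap. Macrophage shares did not overlap between groups, and the two-sided exact permutation test gave p = 0.333, the smallest value that 4 libraries allow.

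In macrophages all 10 genes passed the test of edgeR's quasi-likelihood model, and all were lower under siFXR1-LNA. Of all 14282 genes tested in macrophages, 9.66% were called lower, 9.33% higher and 19% in either direction. The median log2 fold change of the 10 genes was -2.04, and the median over all genes tested was 0.01. Each of the 10 genes was lower in both siFXR1-LNA libraries than in either siCont library, a pattern shown by 46.7% of all genes tested.

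Gbp2b, a guanylate-binding protein formerly named Gbp1 in the mouse, changed most. Its level was 33.3 and 41.0 CPM under siCont and 1.01 and 3.02 CPM under siFXR1-LNA, and the log2 fold change was -3.98 ± 0.48 (SE, adjusted p = 0.011). Of its neighbours on chromosome 3, Gbp3 fell from 50.7 and 61.9 to 6.46 and 13 CPM (log2 fold change -2.34 ± 0.35, adjusted p = 0.0155). Gbp5, which is known for its part in inflammasome assembly, fell from 18.2 and 19.7 to 4.66 and 7.20 CPM (-1.49 ± 0.24, adjusted p = 0.0195). Gbp7 fell from 71.2 and 66.2 to 18.7 and 30.5 CPM (log2 fold change -1.29 ± 0.24, adjusted p = 0.0249), and Gbp2 fell least, from 51.6 and 64.9 to 19.4 and 30.2 CPM (-1.05 ± 0.25, adjusted p = 0.0466).

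Both genes of the overlapping pair on chromosome 5 fell. Gbp4 went from 9.47 and 15.7 to 1.19 and 1.53 CPM (log2 fold change -3.02 ± 0.36, adjusted p = 0.0107). Gbp8 had 24.3 and 32.2 against 5.85 and 5.43 CPM (-2.14 ± 0.21, adjusted p = 0.0079).

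The 3 immunity-related GTPases were all lower. The effector Iigp1, a gene of chromosome 18, had 41.8 and 44.8 against 3.38 and 8.79 CPM (log2 fold change -2.63 ± 0.43, adjusted p = 0.0195). Of the regulators, Irgm1 had 67.0 and 74.8 against 11.2 and 21.4 CPM (-1.93 ± 0.31, adjusted p = 0.0186), and Igtp 28.3 and 35.7 against 6.55 and 10.8 CPM (-1.69 ± 0.28, adjusted p = 0.0198). Whether Iigp1 differed from the regulators in its change was not tested. With any 1 library left out, which leaves 1 library in a group, the estimates of all 10 genes stayed below 0. How many passed depended on which library was left out, as did the number of all genes called.

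**Figure D2:**
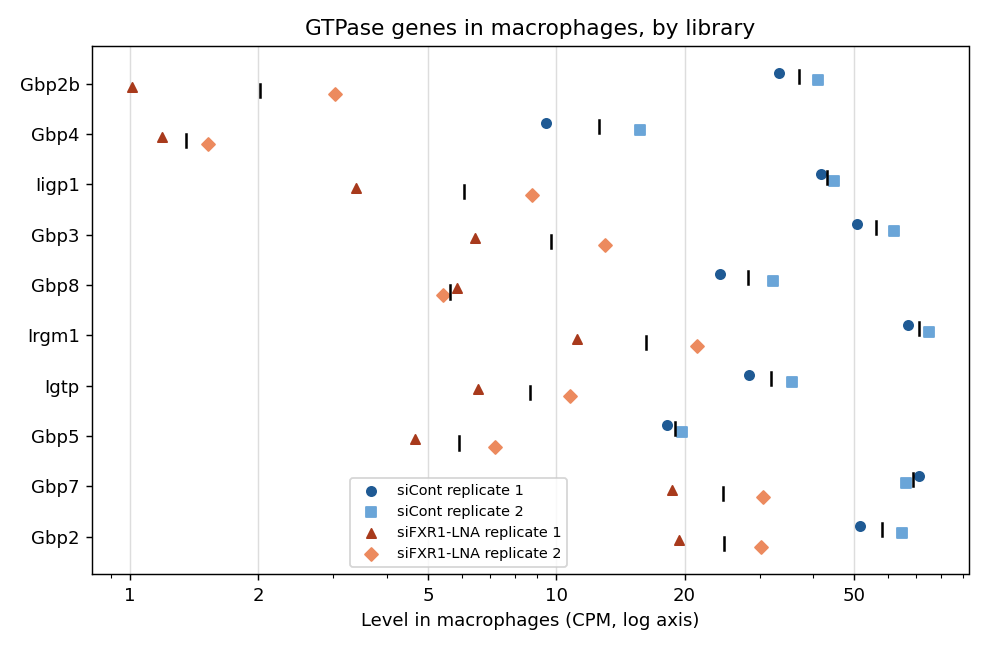
Level of each GTPase gene in macrophages, in CPM on a log axis, ordered by the size of the change; each point is 1 library and each black line a group's mean. Both libraries labelled siFXR1-LNA lie below both labelled siCont for every gene, from 1.01 and 3.02 against 33.3 and 41.0 CPM in Gbp2b to 19.4 and 30.2 against 51.6 and 64.9 CPM in Gbp2.

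The macrophages of the 2 groups were divided differently among subclusters. Whether these were other cells or the same cells in another state cannot be told apart. Macrophage subcluster 2, led by Ace, Cd300e, Adgre4 and Nr1h3 and raising 5 of 9 monocyte markers, made up 23.2% and 33.4% of macrophages in the libraries labelled siCont. It held 0 of 3926 and 0 of 3649 in those labelled siFXR1-LNA, which allows shares of up to 0.0764% and 0.0822%. Its leading genes also included the interferon-inducible Slfn4, Cxcl10, Irf7 and Gbp2b. Subcluster 1, led by Saa3, Saa1 and Cxcl3, made up 53.7% and 52.3% in the libraries labelled siFXR1-LNA and held 0 and 2 cells in those labelled siCont. Subclusters 0 (Alox15, Prg4), 4 (Cacna1d, Nos2) and 6 (cell cycle genes) occurred in all 4 libraries.

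The summed level of the 10 genes was highest in the subcluster that only the siCont libraries held, and low in the one that was nearly only in siFXR1-LNA. It was 770.3 and 939.5 CPM in subcluster 2, and after thinning 29.6% and 34.5% of its cells carried a UMI of the 10 genes. In subcluster 1 it was 68.9 and 96.9 CPM under siFXR1-LNA, with 3.89% and 4.45% of the cells. Subcluster 2 thereby held 39.0% and 70.1% of all macrophage UMIs of the 10 genes in the siCont libraries. Per gene, Gbp2b had 82.8 and 100.2 CPM in subcluster 2 and 0.13 and 0.38 CPM in subcluster 1, and Iigp1 90.4 and 108 CPM against 0.91 and 3.10 CPM. Gbp2 differed less, at 91.3 and 137 CPM in subcluster 2 and 22.6 and 32.5 CPM in subcluster 1. Single genes did not all follow the sum: Gbp2 was lower still in subcluster 4, at 10.2 and 21.2 CPM under siFXR1-LNA, and Gbp8 reached 102 CPM in subcluster 4 of siCont replicate 2, on 15 UMIs, against 61.0 and 67.4 CPM in subcluster 2. The GTPases had been left out of the genes used for clustering, yet Gbp2b was among the leading genes of subcluster 2, so these levels are a description of clusters and carry no test.

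In subcluster 0, which every library held in number (1183 to 2990 cells), the groups overlapped. The summed level was 293 and 175 CPM in the libraries labelled siCont and 104 and 205 CPM under siFXR1-LNA, and siFXR1-LNA replicate 2 stood above siCont replicate 2. Gbp2b had 19.8 and 4.71 against 3.44 and 8.50 CPM, Iigp1 28.7 and 8.17 against 8.03 and 21 CPM, and Gbp8 12.0 and 9.63 against 11.9 and 9.63 CPM. By edgeR 0 of 10 genes passed after adjustment and 1 (Gbp4) at an unadjusted p under 0.05, among 12613 genes of which 0% passed after adjustment and 9.52% before it. DESeq2 called 0 of the 10 genes and 175 genes in all. The 10 log2 fold changes, all below 0, ran from -1.71 ± 0.53 in Gbp4 to -0.01 ± 0.26 in Gbp8, with a median of -0.60. Their signs depended on the library left out. Of the 10 estimates, 6 were below 0 without siCont replicate 1 and 10 without siCont replicate 2. Without siFXR1-LNA replicate 1 it was 8, and without siFXR1-LNA replicate 2 it was 9.

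The rarer shared subclusters differed between groups. In subcluster 4 the summed level was 317 and 462 against 81.3 and 141 CPM, on 68 to 214 UMIs per library, and 4 of 7 genes tested passed, Gbp2b, Gbp7, Gbp8 and Iigp1 (4.73% of all genes there were called lower). In subcluster 6, cycling macrophages with 22 and 45 cells in the libraries labelled siFXR1-LNA, it was 385 and 369 against 125 and 137 CPM, and 3 of 10 passed, Gbp8, Irgm1 and Iigp1 (1.69% called lower). DESeq2 called 0 of the 10 there, and 184 of all 9019 genes. With 1 library left out, the calls in both subclusters depended on which library it was. In subcluster 4, 5 of 8 estimates were below 0 without siCont replicate 1, and 7 of 9 without siCont replicate 2. Iigp1 had log2 fold changes of -3.01 ± 0.40 in subcluster 4 (adjusted p = 0.00442) and -2.24 ± 0.53 in subcluster 6 (adjusted p = 0.0398), against -0.34 ± 0.69 in subcluster 0 (adjusted p = 0.891).

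**Figure D3:**
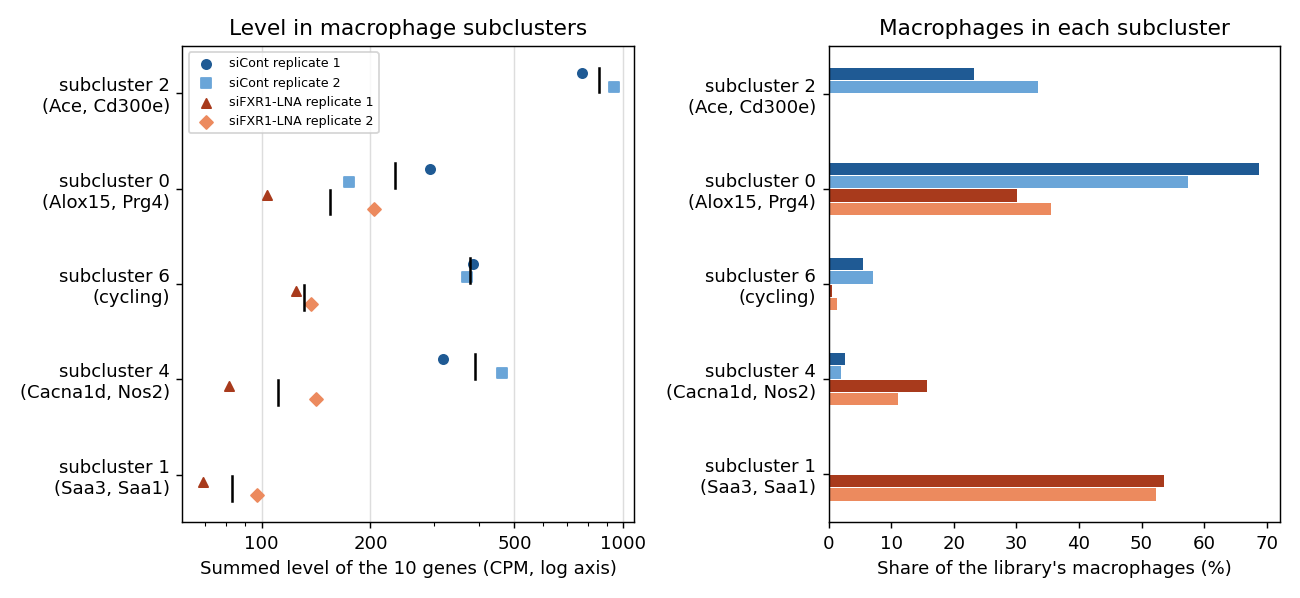
Left, summed level of the 10 GTPase genes in 5 macrophage subclusters, in CPM on a log axis, for libraries with at least 10 cells; right, share of each library's macrophages in each subcluster, in percent. Subcluster 2 lies at 770.3 and 939.5 CPM and occurs only in the libraries labelled siCont, and subcluster 1 lies at 68.9 and 96.9 CPM and makes up 53.7% and 52.3% of macrophages in those labelled siFXR1-LNA.

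The macrophage change was smaller when subclusters were left out, in 2 alternatives chosen after the subclusters had been seen. Without subcluster 2 the summed level was 302 and 207 CPM in the libraries labelled siCont against 78.4 and 132 CPM, and 2 of 10 genes passed, Gbp4 (log2 fold change -1.47 ± 0.30, adjusted p = 0.0406) and Gbp8 (-1.16 ± 0.17, adjusted p = 0.0215), beside 6.51% of all genes called lower. With only subclusters 0, 4 and 6 it was 302 and 207 CPM against 98.6 and 194 CPM, and 0 of 10 passed by edgeR, 3 of them (Gbp2b, Gbp3 and Gbp4) at an unadjusted p under 0.05, where 0% of all genes were called lower. Gbp2b moved from -3.98 over all macrophages to -2.73 ± 0.62 and then to -1.59 ± 0.56, and Iigp1 from -2.63 to -1.56 ± 0.61 and -0.64 ± 0.55. Fold changes stayed below 0 for each of the 10 genes in both alternatives.

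**Figure D4:**
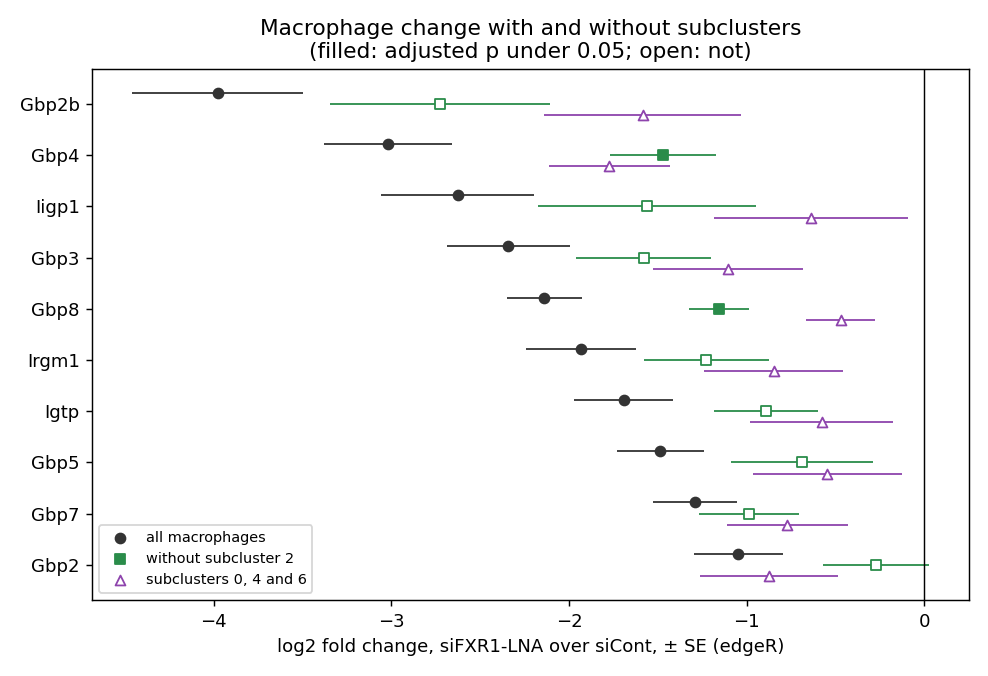
Log2 fold change (siFXR1-LNA over siCont, edgeR) of each GTPase gene with its SE, over all macrophages, without subcluster 2, and over subclusters 0, 4 and 6; filled symbols passed an adjusted p of 0.05. All 10 genes pass over all macrophages, 2 (Gbp4 and Gbp8) without subcluster 2 and 0 over the shared subclusters.

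Other transcripts moved with the macrophage change. The 9 macrophage markers, all detected, summed to 13396 and 12105 CPM in the libraries labelled siCont and to 4749 and 6914 CPM under siFXR1-LNA. The 10 neutrophil markers, all detected, summed to 106 and 430.3 CPM against 1124 and 1362 CPM, and the 7 erythroid markers to 82477 and 58452 CPM against 29549 and 12540 CPM. The 9 monocyte markers overlapped, at 1519 and 2587 against 2511 and 2804 CPM. Their part in the result was not tested, although with hemoglobin genes left out of the sums all 10 genes passed again. Median depth was 4938 and 7941 UMIs per macrophage in the libraries labelled siCont and 5225.5 and 8635 in those labelled siFXR1-LNA. Across the 8 types in which a gene was tested, the erythroid markers were lower in both siFXR1-LNA libraries than in either siCont library, and in the 7 types other than neutrophils the neutrophil markers were higher in both.

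Beyond macrophages, cDC2 showed the most complete change. Of the 9 genes tested there, 8 were called lower, Gbp2, Gbp3, Gbp4, Gbp7, Gbp8, Irgm1, Igtp and Iigp1, where 1.8% of all genes were called lower. Irgm1 had 128 and 161 against 32.9 and 44.6 CPM (log2 fold change -1.93 ± 0.23, adjusted p = 0.0117). Iigp1 had 24.2 and 18.3 against 1.22 and 1.91 CPM (-3.69 ± 0.46, adjusted p = 0.0119), the lower values resting on 1 and 3 UMIs. Gbp2 also passed, with 80.4 and 105 against 32.9 and 26.1 CPM (-1.73 ± 0.24, adjusted p = 0.0172). Gbp5 did not pass, at 18.7 and 18.6 against 13.4 and 9.55 CPM (-0.81 ± 0.31, adjusted p = 0.214), and Gbp2b was left out by the filter on low counts with 20, 10, 0 and 0 UMIs. With 1 library left out, the calls depended on which library it was, as did the number of all genes called. Naming each cell from its own marker UMIs left 2 of the 9, where 84 of all 7519 genes were called.

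The cDC2 also differed in what else they carried. Their 6 cDC2 markers, all detected, summed to 2439 and 2657 CPM in the libraries labelled siCont and 757 and 1365 CPM under siFXR1-LNA. The 9 monocyte markers, all detected, summed to 1374 and 1777 against 546 and 739.6 CPM. The 10 neutrophil markers summed to 119 and 993 against 1763 and 1046 CPM, and the 7 erythroid markers to 99359 and 79553 against 33446 and 18479 CPM. The part of these in the change of the GTPases was not tested.

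In mature dendritic cells, led by Fscn1, Ccl22 and Il12b, 2 of 7 genes tested were called lower, where 1.61% of all genes were. Gbp2 had 199 and 252 CPM against 46.5 and 79.3 CPM (log2 fold change -1.88 ± 0.32, adjusted p = 0.018), and Gbp4 33.5 and 42.7 against 5.81 and 7.62 CPM (-2.50 ± 0.45, adjusted p = 0.022). Gbp5 had 110 and 125 CPM against 49.4 and 93.0 CPM and did not pass (-0.75 ± 0.32, adjusted p = 0.288). Iigp1, with 21, 5, 0 and 1 UMIs, and Gbp2b, with 14, 2, 0 and 1 UMIs, were left out by the filter. DESeq2 called 1 of the 7, and 199 of all 7843 genes. With 1 library left out, the calls depended on which library it was. In these cells the 10 neutrophil markers summed to 77.9 and 362 against 4582 and 1476 CPM, the 8 B cell markers to 366 and 317 against 81.3 and 76.2 CPM, and the 7 erythroid markers to 94900 and 72772 against 44840 and 28967 CPM. All of these markers were detected, and their part in the result was not tested.

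Epithelial or mesothelial cells, which the labels do not divide into tumor and host cells, showed 6 of 8 genes tested called lower, where 4.76% of all genes were. They were Gbp3, Gbp7, Gbp8, Irgm1, Igtp and Iigp1. Gbp8 had 60.2 and 38.4 against 23.1 and 20.4 CPM (log2 fold change -1.17 ± 0.28, adjusted p = 0.0313). Irgm1 had 33.9 and 46.1 against 10.2 and 18.2 CPM (-1.48 ± 0.33, adjusted p = 0.0239), and Iigp1 8.73 and 22.1 against 1.24 and 2.83 CPM (-2.90 ± 0.64, adjusted p = 0.0236). Gbp2 (-1.35 ± 0.45, adjusted p = 0.0995) and Gbp4 (-1.29 ± 0.47, adjusted p = 0.127) did not pass. The 9 macrophage markers in these cells summed to 772 and 279 CPM in the libraries labelled siCont and 413 and 409 CPM under siFXR1-LNA. The 10 neutrophil markers summed to 98.5 and 159 against 1284 and 834 CPM, and the 7 erythroid markers to 67127 and 87998 against 27440 and 16123 CPM. All were detected, and their part in the result was not tested. Naming each cell from its own marker UMIs left 1 of the genes, where 502 of all 10770 genes were called.

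Neutrophils, B cells, T cells and cDC1 gave few calls or none by edgeR, although nearly all estimates were below 0. In neutrophils 1 of 9 genes passed, Gbp3, with 12.8 and 10.2 against 1.49 and 2.75 CPM on 10 to 32 UMIs per library (log2 fold change -2.65 ± 0.54, adjusted p = 0.0253; 2.38% of all genes were called lower). In B cells 0 of 10 passed after adjustment and 8 at an unadjusted p under 0.05, where 0.0161% of all genes were called lower and 14.3% had such a p. DESeq2 called 3 of the 10 there, and 454 of all 12455 genes. In T cells 0 of 9 passed and 6 had an unadjusted p under 0.05, where 0.133% of all genes were called lower and 11.5% had such a p; DESeq2 called 0. In cDC1 0 of 4 tested genes passed and 1 (Irgm1) had an unadjusted p under 0.05, where 0.39% were called lower and 13.5% had such a p; DESeq2 called 0. With 1 library left out, the calls in neutrophils, B cells and T cells depended on which library it was, as did the number of all genes called.

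The genes were measured at these levels in the lymphocytes and cDC1. In T cells of the libraries labelled siCont, Igtp had 85.1 and 107 CPM, Irgm1 67.2 and 63.6, Iigp1 58.5 and 66.0 and Gbp4 46.1 and 61.2 CPM, while the siFXR1-LNA libraries lay far from each other, with 27.4 and 74.5 CPM for Igtp and 20.04 and 51.7 CPM for Gbp4. Gbp2b, at 1 to 5 UMIs per library, was barely detected in T cells. In B cells Irgm1 had 47.3 and 53.0 against 20.7 and 25.1 CPM (log2 fold change -1.32 ± 0.23, adjusted p = 0.0953) and Gbp2 25.04 and 26.6 against 7.56 and 10.9 CPM (-1.68 ± 0.28, adjusted p = 0.0944). In cDC1 Irgm1 alone had over 100 UMIs in a siCont library, with 70.5 and 73.0 against 39.4 and 39.8 CPM (-0.83 ± 0.23, adjusted p = 0.154). The T cells, like the macrophages, were divided differently among subclusters in both groups, and other cells cannot be told apart from another state. T cell subcluster 0 held 1659 of 2375 and 1780 of 2212 T cells under siCont but 5 of 880 and 53 of 1189 under siFXR1-LNA. Against other cell types Cd40lg, Cd4 and Lef1 were among its leading genes. Against the other T cell subclusters, the interferon-inducible Ifi27l2a, Ifit3b, Ifit1bl1 and Ifit3 were among them as well. In T cell subcluster 1, the one with at least 282 cells in every library, Iigp1 passed, with 112 and 70.6 against 18.8 and 30.8 CPM (-1.78 ± 0.39, adjusted p = 0.0171; 3.03% of all genes there were called lower). Over 9 alternatives its log2 fold change ran from -2.08 to -1.45, and its call depended on the library left out. Plasmacytoid dendritic cells and mast cells or basophils had enough cells, but none of the 10 genes had enough UMIs to be tested, and NK cells had 4 and 10 cells in the libraries labelled siFXR1-LNA.

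Over the 8 cell types in which a gene could be tested, 65 of 66 fitted log2 fold changes were below 0; the exception was Gbp2 in cDC1 (0.17 ± 0.76, adjusted p = 0.956). The types come from the same 4 libraries and are not independent of each other. Irgm1 was tested in 8 types and called in 3, and Gbp2b was tested in 2 and called in 1.

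**Figure D5:**
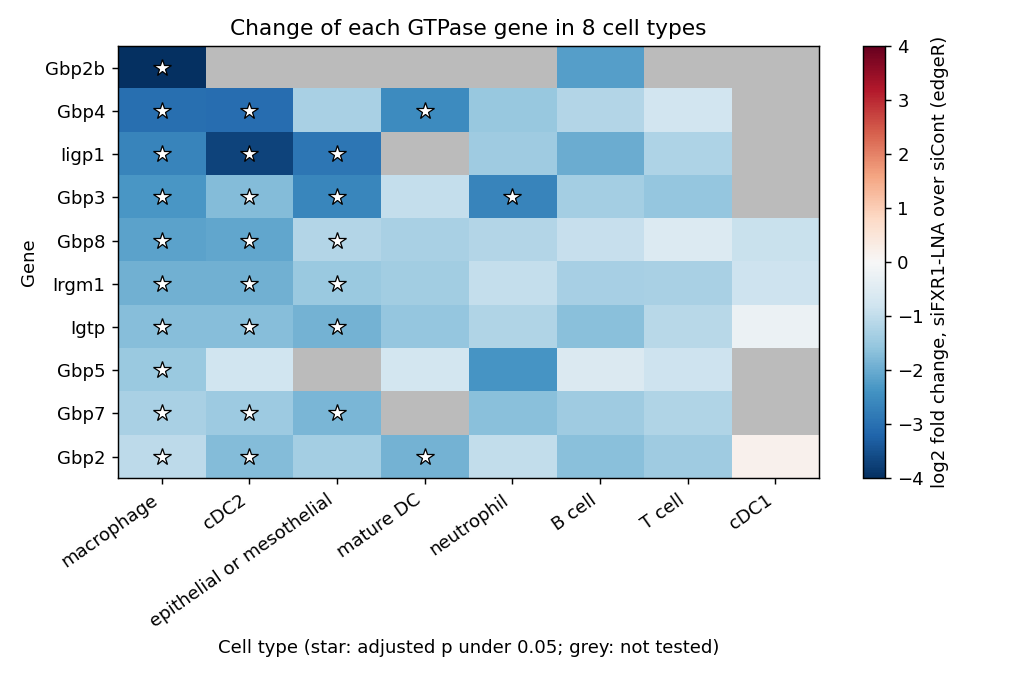
Fitted log2 fold change (siFXR1-LNA over siCont, edgeR) of each GTPase gene in the 8 cell types where at least 1 gene was tested; stars mark an adjusted p under 0.05 and grey cells were left out by the filter on low counts. All 10 genes are starred in macrophages, 8 in cDC2, 6 in epithelial or mesothelial cells, 2 in mature dendritic cells, 1 in neutrophils and 0 in B cells, T cells and cDC1.

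Whether the change differed between macrophages and another type was asked with an interaction term, each library serving as its own block. Of 70 tests over 7 types, 5 passed after adjustment over all genes, and in each the change was smaller outside macrophages. Log2 fold changes of T cells lay above those of macrophages by 2.20 ± 0.34 for Gbp4 (adjusted p = 0.0156), 1.60 ± 0.27 for Gbp8 (adjusted p = 0.0218) and 1.39 ± 0.25 for Iigp1 (adjusted p = 0.028), where 1.53% of all genes passed. The subclusters that made up the T cells and the macrophages differed between groups, as given above, and their part in these differences was not tested. Gbp4 in B cells (1.77 ± 0.40, adjusted p = 0.0357; 3.24% of all genes passed) and Irgm1 in cDC1 (1.09 ± 0.30, adjusted p = 0.0334; 3.62%) were the others. Gbp2 had differences of the opposite sign that did not pass, in mature dendritic cells (-0.90 ± 0.30, adjusted p = 0.0546) and in cDC2 (-0.75 ± 0.25, adjusted p = 0.0815). Of all genes 4.78% passed in mature dendritic cells, 6.34% in cDC2, 4.98% in neutrophils and 0.659% in epithelial or mesothelial cells.

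Ifng, the gene of the ligand interferon-gamma, was rare. It had 69, 115, 7 and 24 UMIs in T cells of siCont replicates 1 and 2 and siFXR1-LNA replicates 1 and 2, or 13.4 and 18.4 against 3.69 and 8.05 CPM. The groups did not overlap, but the difference did not pass (log2 fold change -1.58, adjusted p = 0.258). NK cells held 4, 4, 0 and 1 UMIs, and macrophages 3, 1, 0 and 0.

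In macrophages both receptor chains were detected in every library, and Irf1 was lower under siFXR1-LNA. Ifngr1, the ligand-binding chain, had 216 and 232 against 136 and 196 CPM (log2 fold change -0.25 ± 0.20, adjusted p = 0.42), and Ifngr2, its partner, 93.2 and 91.5 against 70.2 and 93.3 CPM (0.01 ± 0.16, adjusted p = 0.969). Irf1 fell from 78.1 and 69.9 to 25.3 and 38.0 CPM (-1.04 ± 0.20, adjusted p = 0.0299). Of the 13 ligand, receptor and signalling genes tested, 7 were called lower and 1, Jak2, higher; Ciita, the class II transactivator, fell by 2.01 on the log2 scale, Nlrc5, its class I counterpart, by 1.49, Socs1, a feedback inhibitor, by 1.21 and Batf2 by 1.20. The median log2 fold change over the list was -1.04. It also held 1 gene, Ifng, left out by the filter.

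Other interferon-inducible GTPases fell with the 10. Their list also holds Mx1, Mx2 and Gvin1, which are not of the same families. Of 9 tested in macrophages 7 were called lower, with a median log2 fold change of -1.78 over the list. Tgtp1 (-3.62 ± 0.43, adjusted p = 0.0107), Tgtp2 (-3.24 ± 0.51, adjusted p = 0.018), Ifi47 (-2.23 ± 0.38, adjusted p = 0.0211), Gbp9 (-1.93 ± 0.23, adjusted p = 0.0105) and Irgm2 (-1.78 ± 0.28, adjusted p = 0.0182) changed most. Tgtp1 and Tgtp2 are near-identical copies whose reads cannot be told apart with certainty.

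The list of other interferon-gamma targets was divided. Of 15 tested in macrophages 6 were called lower, among them Serpina3g (-2.24 ± 0.29, adjusted p = 0.0122), the chemokine Cxcl10 (-2.04 ± 0.33, adjusted p = 0.0191) and Parp14 (-1.71 ± 0.26, adjusted p = 0.0161). Called higher were 2: Cd274, which encodes PD-L1, rose from 29.7 and 30.0 to 154 and 148 CPM (2.53 ± 0.12, adjusted p = 0.00342), and Socs3 from 30.3 and 32.1 to 90.0 and 105 CPM (1.83 ± 0.13, adjusted p = 0.00559). The median over the list was -0.89. Of 7 inducers of interferon-gamma tested, 0 were called lower and 2 higher: the interleukin-12 subunit Il12a (3.85 ± 0.55, adjusted p = 0.0143; at most 2.11 CPM) and the interleukin-18 receptor chain Il18rap (1.78 ± 0.32, adjusted p = 0.0242).

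Genes that type I interferons induce were lower in macrophages as well. All 17 tested were called lower, with a median log2 fold change of -2.79 against -2.04 over the 10 GTPases. Ifi44 (-5.29 ± 0.34, adjusted p = 0.00474), Ifit3 (-4.77 ± 0.42, adjusted p = 0.00631), Ifit1 (-3.91 ± 0.49, adjusted p = 0.0116), Ifit2 (-3.87 ± 0.25, adjusted p = 0.00474) and Irf7 (-3.34 ± 0.34, adjusted p = 0.00821) changed most. In neutrophils 16 of 17 of these were called lower where 1 of 9 GTPases was, and in mature dendritic cells 14 of 15 where 2 of 7 were. In cDC2 all 17 were called lower where 8 of 9 GTPases were, and in epithelial or mesothelial cells 11 of 17 where 6 of 8 were. In T cells 7 of 17 type I genes were called lower where 0 of 9 GTPases were, and in cDC1 3 of 15 where 0 of 4 were. In B cells neither list gave a call by edgeR, with median log2 fold changes of -2.80 and -1.39. Whether the lists differed was not tested. In macrophage subcluster 0, 0 of 17 passed by edgeR, with a median log2 fold change of -1.18.

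Across 14 cell types, the 5 genes whose mean log2(CPM + 1) followed that of the summed GTPases most closely among 9014 genes were Tmem234 (Pearson's r = 0.967), Eif3c (0.959), Pcnp (0.956), Vps28 (0.951) and Mien1 (0.951). These points include platelets, in which 3 libraries held 4 to 10 cells and no UMI of the 10 genes, so cell number and depth are shared by the points.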

How the data were processed

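Single-cell RNA of pooled mouse ascites was measured in 4 libraries, 2 per group. The authors deposited raw UMI counts for every barcode and gene; per the labels they come from Cell Ranger 7.0.0 and mm10, and the methods name a later version. Labels and methods also name different kit versions. The mice were FVB and mm10 is a C57BL/6J genome, so strain differences in these families could lower counts; this was not measured. The authors' methods left out 1 siFXR1-LNA library that they do not name, and all 4 were kept here. Barcodes with 100 to 4800 genes and at most 15% mitochondrial counts were kept. Cells were clustered in Seurat 5.3.0 (2000 variable genes without the 10 members and the genes of the other lists, 50 components, resolution 0.1). Interferon-inducible genes outside these lists, such as Slfn4, Ifi27l2a, Ifit3b and Ifit1bl1, were not removed. Clusters were named from raised markers by a rule set after the clusters had been seen. Mixed clusters were set aside. The Scrublet doublet caller marked almost no cell, so that removal of the 5% highest scores was an alternative.

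Counts were summed per type and library, and types with at least 10 cells in every library were tested with edgeR 4.0.16 (quasi-likelihood test, filterByExpr, TMM), with Benjamini-Hochberg adjustment over all genes tested and a threshold of 0.05. Levels are counts per 1000000 counts of the type (CPM). Thinned shares have exact binomial intervals, which cover counting error only. The p-values measure only the spread between libraries. The members and lists were chosen with earlier results of these data known. Named were all 10 members, at most 5 genes per other list that passed in macrophages, Ifng, Ifngr1, Ifngr2, Irf1, Fxr1 and the 5 genes of most similar pattern (mean log2(CPM + 1), pseudocount 1, at least 10 CPM); 1 further gene of this rule is not reported here. In simulated macrophage counts of 13982 genes, 73.3% of genes changed by 2 on the log2 scale and 29.5% of those changed by 1 were recovered. The same shares were 32.2% and 0% in neutrophils (12056 genes), 50% and 0% in T cells (11752) and 64.4% and 2.91% in B cells (12155). Genes simulated without a change were called as well. They numbered 13 in macrophages, 0 in neutrophils, 10 in T cells and 6 in B cells, beside 196, 190, 195 and 193 changed genes. Alternatives were DESeq2 1.42.0, other normalization, filters, clustering and naming, a replicate block, and leaving out each library.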

Additional observations from a re-analysis of the deposited data

Results flagged for a closer look

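The fall in macrophages was larger than in another cell type for 5 gene and type pairs, by an interaction test in edgeR with the library as a block and adjustment over all genes. For Gbp4 the log2 fold change in T cells was 2.20 above that in macrophages (adjusted p = 0.0156), and in B cells 1.77 above it (adjusted p = 0.0357). For Gbp8 in T cells the difference was 1.60 (adjusted p = 0.0218), and for Iigp1 in T cells 1.39 (adjusted p = 0.028). For Irgm1 in cDC1 it was 1.09 (adjusted p = 0.0334). The macrophages of the libraries labelled siCont held a subcluster that those labelled siFXR1-LNA did not, and T cell subcluster 0 held 1659 of 2375 and 1780 of 2212 siCont T cells but 5 of 880 and 53 of 1189 siFXR1-LNA T cells. The part of these in the differences was not tested.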

How the results depend on the processing

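All 10 genes passed in macrophages under DESeq2, RLE normalization, no filter on low counts, hemoglobin genes left out, a replicate block, the other clusterings and namings and the removal of high doublet scores. Of all genes, from 2300 of 13815 (cells named from marker UMIs) to 4106 of 22221 (no filter) were called in these settings. With 1 library left out, a group rests on 1 library. How many of the 10 genes passed then depended on the library in macrophages, cDC2, mature dendritic cells, neutrophils, B cells and T cells. The same held in epithelial or mesothelial cells, macrophage subclusters 4 and 6 and T cell subclusters 1 and 2. In all of these the number of all genes called moved as well. In the alternatives chosen after seeing the data, 2 passed in macrophages without subcluster 2 and 0 over the shared subclusters. With DESeq2 3 passed in B cells, 1 in mature dendritic cells, 2 in neutrophils and 0 in macrophage subcluster 6. Of all genes it called 454 of 12455, 199 of 7843, 599 of 12333 and 184 of 9019 in these, in the same order. Without a filter on low counts 7 passed in B cells, 4 in mature dendritic cells, 0 in neutrophils, 6 in T cells and 6 in macrophage subcluster 6. All genes called there were 1200 of 20330, 669 of 16895, 0 of 20055, 867 of 20089 and 695 of 16328, in the same order. With cells named from marker UMIs 2 passed in cDC2, 1 in epithelial or mesothelial cells, 1 in mature dendritic cells, 0 in neutrophils and 1 in T cells. All genes called then were 84 of 7519, 502 of 10770, 82 of 6820, 205 of 8477 and 162 of 9786, in the same order. The causes were not tested.

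The replicate numbers are not tied to a shared litter or day, and with 2 pairs the deviations of same-numbered libraries correlated at 0.015 to 0.43 over genes. With the replicate block 5 passed in B cells, 4 in mature dendritic cells, 4 in neutrophils, 3 in T cells, 5 in macrophage subcluster 6, 4 in T cell subcluster 1 and 7 in epithelial or mesothelial cells. All genes called were 893 of 12455, 569 of 7843, 1247 of 12333, 383 of 12054, 553 of 9019, 2056 of 9415 and 1657 of 13138, in the same order. The counts of the 10 genes were as before in macrophages (10), cDC2 (8), macrophage subcluster 4 (4), macrophage subcluster 0 (0) and cDC1 (0). There 3877 of 14282, 1045 of 10397, 1688 of 8874, 93 of 12613 and 215 of 8977 of all genes were called. cDC1, epithelial or mesothelial cells and plasmacytoid dendritic cells had no value at a minimum of 500 genes per cell, nor had cDC2 and mature dendritic cells there or at resolution 0.3. Low counts limited what could be tested: Gbp2b passed the filter in 2 of 8 types.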
